A study of Mus musculus with 6 samples.

Results

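The mRNA of 10 amino acid transporter genes was followed in GC-2 cells exposed to bisphenol A (BPA), a monomer of polycarbonate plastic. GC-2 spd(ts) is an established mouse cell line of spermatocyte origin, spermatocytes being the germ cells of the testis that undergo meiosis. The genes were taken by symbol (Slc7a11, Slc7a1, Slc7a3, Slc7a5, Slc3a2, Slc1a4, Slc1a5, Slc38a1, Slc38a2 and Slc6a9), and all 10 were among the 22127 genes of the mRNA table. After 12 h without serum, the BPA culture was kept for 48 h in medium with 10% serum and 120 µM BPA dissolved in dimethyl sulfoxide, and the control culture for the same time in that medium with 0.1% of the solvent alone. RNA of each culture was divided among mRNA, small RNA and circular RNA (circRNA) libraries, and the mRNA and circRNA libraries are used here. Each group had 1 library of each kind, so no difference has a replicate check, no p-value was computed, and BPA cannot be told apart from anything else in which the cultures differed.

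Amino acids cross the plasma membrane through solute carriers, membrane proteins of which many exchange an amino acid for another or take it up together with sodium. Some work as pairs, in which the single-pass heavy chain Slc3a2 (CD98) is bound through a disulfide to a light chain of the SLC7 family that carries the substrate. When amino acids run short or translation initiation is inhibited, the transcription factor ATF4 is made more efficiently and binds C/EBP-ATF response elements (CARE), and transporter genes, Slc7a11 and Slc3a2 among them, are known targets. Slc7a11 is also a known target of NRF2, the regulator of antioxidant defence, which binds antioxidant response elements.

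The promoters of 6 of the 10 genes could be read, in 9 windows from 250 bases before to 50 after an annotated start, from RefSeq sequences of GRCm38.p6. The genes with no window were Slc7a3, Slc7a5, Slc1a5 and Slc38a1. The CARE core was searched as TGATGNAA on both strands. It lay in 3.97% of all 32851 RefSeq windows, and in 0.07% it occurred more than once. The Slc7a11 window held 2 matches, 66 to 59 and 47 to 40 bases before the start and on opposite strands, and the Slc1a4 window held 1 match, which began 4 bases before the start and ran 4 bases past it. These stretches are shown because they hold all the CARE core matches found among the transporters, with the matches in capitals and each read 5′ to 3′ on the strand of the gene, which is the minus strand for both (chr3:50443614-50443719 for Slc7a11 and chr11:20332710-20332757 for Slc1a4).
Slc7a11: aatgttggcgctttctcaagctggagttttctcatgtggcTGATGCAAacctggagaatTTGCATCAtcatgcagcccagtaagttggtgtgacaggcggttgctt
Slc1a4: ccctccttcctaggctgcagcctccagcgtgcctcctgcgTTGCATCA

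The antioxidant response element core, searched as TGACNNNGC, lay in 12.4% of all windows. It was matched once in 2 of 3 Slc6a9 windows, in 1 of 2 Slc7a1 windows and in the Slc38a2 window, and not in those of Slc7a11, Slc1a4 and Slc3a2. The E-box CACGTG, present in 7.15% of all windows, was matched in none of the 9. No match of a motif overlapped a match of another in the 9 windows. Over all 10509 measured genes with a window, 49 of 278 genes with 1 CARE core match were at least 2-fold higher in the BPA library (17.6%), 2 of 6 with more than 1 (33.3%) and 604 of 10225 with none (5.91%). Slc7a11 is itself 1 of the 2 higher genes among the 6, and Slc1a4 1 of the 49 among the 278. These shares are therefore not independent of the transporters. At least 2-fold lower were 7 of the 278 (2.52%), 0 of the 6 and 316 of the 10225 (3.09%). The classes were not matched for expression or base composition, and a match describes only the letters of a window.

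All 10 transporters had a ratio of BPA over control above 1, and 4 of them were at least 2-fold higher. The counts are set against the background of the same libraries. A ratio of at least 2 was reached upwards by 6.88% and downwards by 4.61% of the 16870 measured genes, those with at least 10 reads in both libraries together. A ratio above 1 was found for 51.9% of them. All 10 transporters had at least 50 reads, and among the 13530 genes with that many reads the shares past 2-fold were 3.25% upwards and 2.05% downwards. The 95% counting interval lay above equality for all 10 transporters, against 28.2% of measured genes. That share is not matched for depth, since it includes genes with as few as 10 reads, whose intervals are wide. The median log2 ratio of the 10 transporters was 0.93, against 0.02 over all measured genes. The 10 genes were selected with earlier results of these libraries known, so these contrasts are no independent evidence of a direction. The ratios compare the deposited normalised values with 1 added, and the intervals are exact conditional binomial ones. The intervals cover counting error only, because 1 library per group shows no spread between cultures, and they leave out the error of the scaling. Copies made by PCR are not told apart without molecular identifiers, so the intervals may be too narrow even for counting error.

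The mRNA libraries held 33071378 reads with BPA and 32312872 in control, so that a gene with no read could be as high as 0.0907 CPM (counts per 1000000 reads) with BPA and 0.0928 CPM in control, the worth of 3 reads. Markers of the labelled cell type were scarce. Of 16 spermatocyte and germ cell markers 12 were not analysed here, and their summed level was 18.4 CPM with BPA and 13.1 CPM in control, nearly all of it the heat shock gene Hspa2 with 588 and 411 reads. The germ cell helicase Ddx4 had 9 reads with BPA and 0 in control, and the synaptonemal complex gene Sycp3 had 0 with BPA and 6 in control. Of 10 peritubular and fibroblast markers 7 were measured, all with a ratio below 1 and 4 at least 2-fold lower, and the list summed to 2050 CPM with BPA and 4233 CPM in control. Myh11 and Dcn were at 0 in control, with 9 and 8 reads with BPA, and Thy1 was not analysed here. Sertoli cell markers, with 2 of 8 measured past 2-fold upwards and 1 downwards, summed to 151.8 CPM with BPA and 131.0 CPM in control. Leydig cell markers, with 2 measured and none past 2-fold, summed to 70.5 CPM with BPA and 55.7 CPM in control. Macrophage and leukocyte markers, with 1 of 4 past 2-fold upwards (Cd74), summed to 8.47 CPM with BPA and 5.08 CPM in control. With at least 50 reads, 0 of 4 Sertoli cell markers and 0 of 1 leukocyte marker were past 2-fold. Beside the marker counts stand the 6.88% of all measured genes past 2-fold upwards and the 4.61% downwards. The part of these marker differences in the transporter values was not tested. In bulk RNA, fewer cells of a type and less RNA per cell cannot be told apart.

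**Figure D1:**
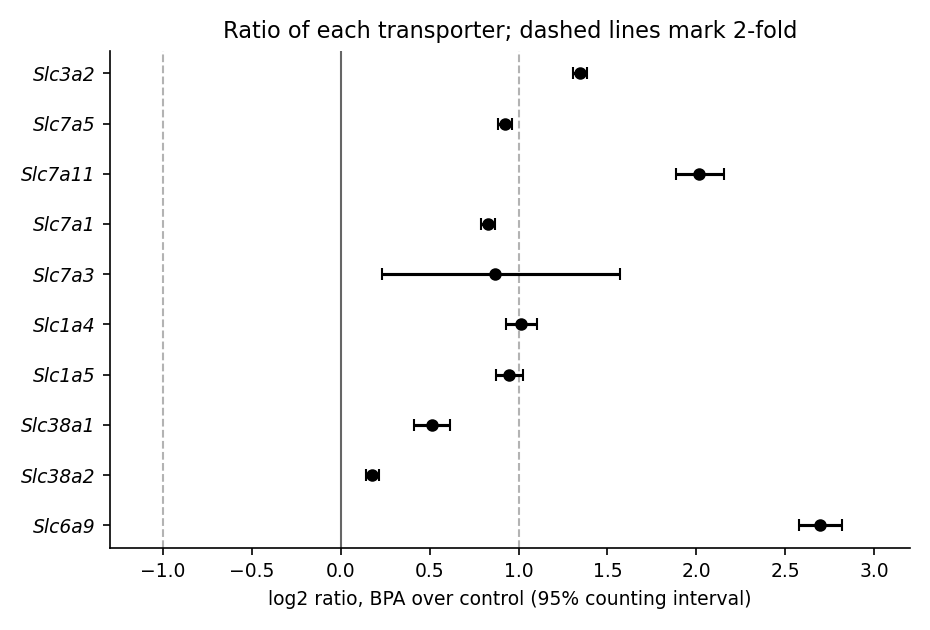
Points give the log2 ratio of BPA over control for each of the 10 transporters, bars the 95% counting interval, and dashed lines a 2-fold difference. All 10 intervals lie above 0, Slc6a9 and Slc7a11 lie farthest to the right at 2.70 and 2.02, and Slc38a2 lies nearest to 0 at 0.18.

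The glycine transporter and the cystine transporter had the highest ratios. Slc6a9 (GlyT1), which takes up glycine with sodium and chloride (chromosome 4, 117834506 to 117875198 in GRCm38, as for all gene positions here), had 4517 reads with BPA and 644 reads in control. That is a 6.48-fold higher value and a log2 ratio of 2.70 (95% interval 2.58 to 2.82). Exons of the opposite strand gene Ccdc24 cover 27.8% of the exon length of Slc6a9. Ccdc24 itself had 202 reads with BPA and 174 in control, fewer than Slc6a9 in either library. The library is labelled strand-specific, but the strand setting of the count is not stated, so reads of the shared bases may belong to either gene. The exons of the other 9 transporters overlap no other gene in the annotation. Slc7a11 (xCT), which imports cystine in exchange for glutamate and so supplies cysteine for glutathione (chromosome 3, 49892526 to 50443614), had 2474 reads with BPA and 565 in control. Its log2 ratio was 2.02 (1.89 to 2.15), a 4.05-fold higher value. The intervals of these 2 genes do not overlap each other or those of the other transporters.

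The heavy chain Slc3a2 was higher by more than its main partner. Slc3a2 (chromosome 19, 8706882 to 8723369) had 19346 reads with BPA and 7050 in control, a log2 ratio of 1.34 (1.31 to 1.38). Slc7a5 (LAT1), the light chain that brings in leucine and other large neutral amino acids (chromosome 8, 121881150 to 121907694), had 15401 reads with BPA and 7521 in control. Its log2 ratio was 0.92 (0.88 to 0.96), just under 2-fold. The intervals of the heavy chain and of Slc7a5 do not overlap. With the reads scaled by the library total in place of the authors' scaling, Slc7a5 was at 1.00 and reached 2-fold.

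Levels per length set the chains side by side, and are scaled by library totals where the ratios use the authors' scaling. As reads per kilobase of exon per 1000000 reads (RPKM), Slc3a2 was at 165.8 with BPA and 61.8 in control, and Slc7a5 at 125.6 with BPA and 62.8 in control. Slc7a11 was at 5.37 RPKM with BPA and 1.26 RPKM in control. The summed level of 5 light chains that pair with Slc3a2 (Slc7a5, Slc7a6, Slc7a7, Slc7a8 and Slc7a11) was 143.8 RPKM with BPA and 77.4 RPKM in control. The level of the heavy chain was 1.15 times that sum with BPA and 0.799 times that sum in control. Slc7a5 made up 87.3% of the light chain level with BPA and 81.1% in control, and Slc7a11 3.74% with BPA and 1.62% in control. These shares depend on the annotated exon lengths, 13922 bases for Slc7a11 and 3708 for Slc7a5. Whether the cells use transcripts of those lengths was not tested. The share of Slc7a6 (y+LAT2) was 8.74% with BPA and 16.8% in control, and it had 1900 reads with BPA and 1920 in control.

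**Figure D2:**
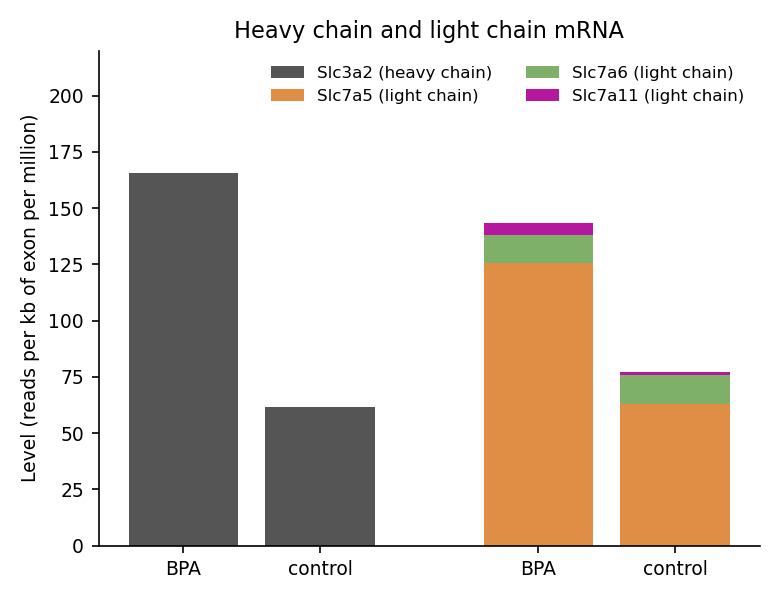
Bars give the level, in RPKM, of the heavy chain Slc3a2 (left pair) and of its light chains Slc7a5, Slc7a6 and Slc7a11 stacked (right pair), each for BPA and control. The heavy chain bar is taller than the stacked light chains with BPA and shorter in control. Slc7a7 and Slc7a8, under 1 RPKM, are not drawn.

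The cationic amino acid transporters of the SLC7 family carry arginine and lysine and need no heavy chain. Slc7a1 (CAT1, chromosome 5, 148327410 to 148399904) had 15789 reads with BPA and 8221 in control, a log2 ratio of 0.83 (0.79 to 0.87). Slc7a3 (CAT3, chromosome X, 101079210 to 101086020) had 60 reads with BPA and 30 in control, and its ratio of 0.87 came with an interval from 0.23 to 1.57. The order of this pair cannot be told at that depth. The arginine transporter Slc7a2, of the same group but outside the 10, had 593 reads with BPA and 269 in control and a log2 ratio of 1.03 (0.82 to 1.24). Together the 3 cationic transporters had 43.8 RPKM with BPA and 23.2 RPKM in control, nearly all of it from Slc7a1.

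The neutral amino acid exchangers of the SLC1 family lay close to each other. Slc1a4 (ASCT1), an exchanger of serine, alanine and cysteine (chromosome 11, 20302180 to 20332713), had 3481 reads with BPA and 1594 in control. Its log2 ratio was 1.01, with an interval from 0.93 to 1.10 that includes a 2-fold difference. Slc1a5 (ASCT2), which exchanges glutamine (chromosome 7, 16781340 to 16798274), had 4239 reads with BPA and 2034 in control and a log2 ratio of 0.95 (0.87 to 1.02). The intervals overlap, so the pair stood on either side of the 2-fold threshold without a difference beyond counting error. Slc1a5 was at 1.03 with library-total scaling, past 2-fold. The level of Slc1a5 was 1.15 times that of Slc1a4 with BPA and 1.20 times in control.

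The sodium-coupled transporters of the SLC38 family had the lowest ratios. Slc38a1 (SNAT1, chromosome 15, 96571418 to 96642913) had 2004 reads with BPA and 1302 in control, a log2 ratio of 0.51 (0.41 to 0.61). Slc38a2 (SNAT2, chromosome 15, 96687392 to 96699730), a system A transporter known to respond to amino acid starvation, had 13223 reads with BPA and 10830 in control. Its log2 ratio was 0.18 (0.14 to 0.21), a 1.13-fold higher value. It ranked 3 among the 10 by level in both libraries, at 45.2 RPKM with BPA and 37.9 RPKM in control.

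**Figure D3:**
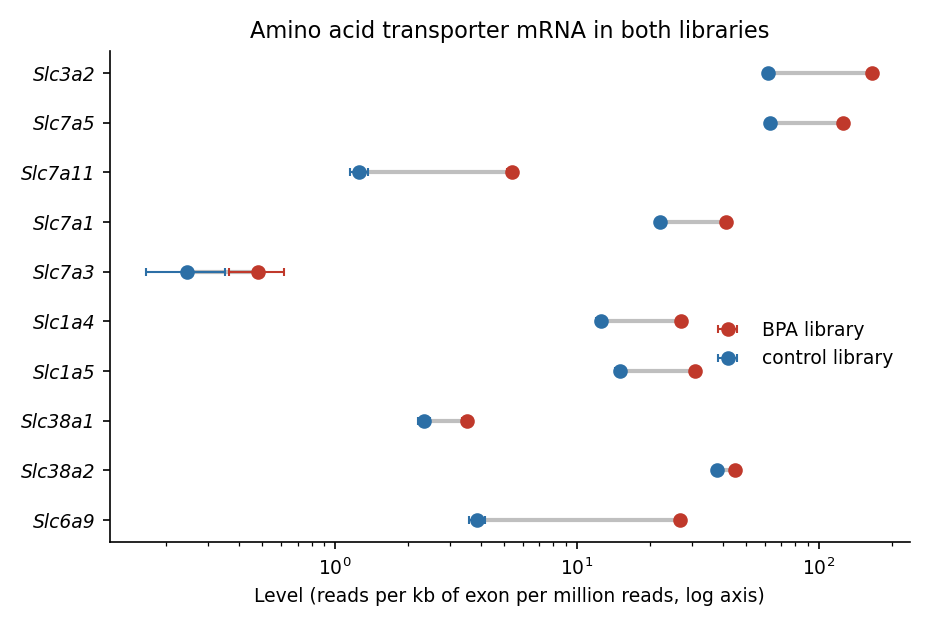
Points give the level of each transporter in RPKM on a log axis, red for BPA and blue for control, with exact Poisson 95% intervals of the reads. The red point lies to the right of the blue point for all 10, from the small gap of Slc38a2 to the wide gap of Slc6a9.

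The order of levels was much alike in the libraries, with exchanges between neighbours. With BPA it ran Slc3a2, Slc7a5, Slc38a2, Slc7a1, Slc1a5, Slc1a4, Slc6a9, Slc7a11, Slc38a1 and Slc7a3, the last at 0.479 RPKM. In control Slc7a5 stood before Slc3a2 and Slc38a1 before Slc7a11, and Slc7a3 was last at 0.245 RPKM. Slc1a4 and Slc6a9 did not differ beyond their counting intervals with BPA, at 26.8 and 26.6 RPKM, whereas in control they were at 12.6 and 3.88 RPKM. Slc7a5 and Slc3a2 did not differ beyond them in control. All other neighbours did in both libraries, though the intervals leave out any error in the exon lengths that levels are divided by. With BPA Slc7a1 had 15789 reads and Slc38a2 13223, and their order by level is the reverse. The 10 genes summed to 2435 CPM with BPA and 1231 CPM in control, 1.98-fold higher. Slc3a2, Slc7a5 and Slc7a1 together accounted for 68.3% of that difference, Slc6a9 for 9.69% and Slc7a11 for 4.76%. The 2 genes with the highest ratios were thus not those that differed most in reads. These shares are not divided by exon length. In RPKM the differences were 103.9 for Slc3a2, 62.8 for Slc7a5, 22.7 for Slc6a9, 19.3 for Slc7a1 and 4.12 for Slc7a11.

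In the authors' deposited table the p-values of the 10 genes ran from 0.0952 for Slc38a1 to 0.346 for Slc38a2, and the adjusted value was 0.961 for each. These p-values did not follow the size of the ratio, since Slc6a9, the gene with the highest ratio, was given 0.300. None of the 10 was under 0.05, against 147 of 22127 genes in that table, and no gene had an adjusted value under 0.05.

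The place of the transporters among solute carriers depended on the read minimum. Solute carriers were taken here as all genes whose symbol starts with Slc. Some of these are pseudogenes, such as Slc22a13b-ps, or genes that encode no carrier, such as Slc9a3r1. Of all 236 measured solute carriers, ranked by log2 ratio, Slc6a9 ranked 4, Slc7a11 5, Slc3a2 15, Slc1a4 28, Slc1a5 32, Slc7a5 33, Slc7a3 38, Slc7a1 40, Slc38a1 58 and Slc38a2 101. The 3 above them, Slc6a15, Slc4a10 and Slc26a8, had 19, 11 and 11 reads with BPA and 0 in control, and Slc4a10 and Slc26a8 are named here after their values were seen. Of 167 solute carrier genes that reached 100 reads in at least 1 library, Slc6a9 ranked 1, Slc7a11 2, Slc3a2 4, Slc1a4 8, Slc1a5 11, Slc7a5 12, Slc7a1 14, Slc38a1 27 and Slc38a2 63, and Slc7a3 was under that read count. Outside the 10, at least 2-fold higher values were found for 6 of 179 solute carriers with at least 50 reads (3.35%) and at least 2-fold lower values for 3 (1.68%). Without that read minimum 24 of 226 were higher (10.6%) and 9 lower (3.98%), and the median log2 ratio of the 226 was 0.08. Among the 167 with at least 100 reads in a library, the 5 highest were completed by Slc9a9, a sodium-proton exchanger of endosomes, at 1.73 (1.31 to 2.22) with 193 reads with BPA and 53 in control, and Slc25a45, of the mitochondrial carrier family, at 1.11 (0.71 to 1.56). The 5 lowest of the 167 were the glutamate transporter Slc1a6 at -1.50 (-1.94 to -1.11), with 69 reads with BPA and 183 in control, the bicarbonate cotransporter Slc4a4 at -0.74, the zinc transporters Slc39a13 at -0.65 and Slc39a10 at -0.61, and the sodium-proton exchanger Slc9a5 at -0.64.

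**Figure D4:**
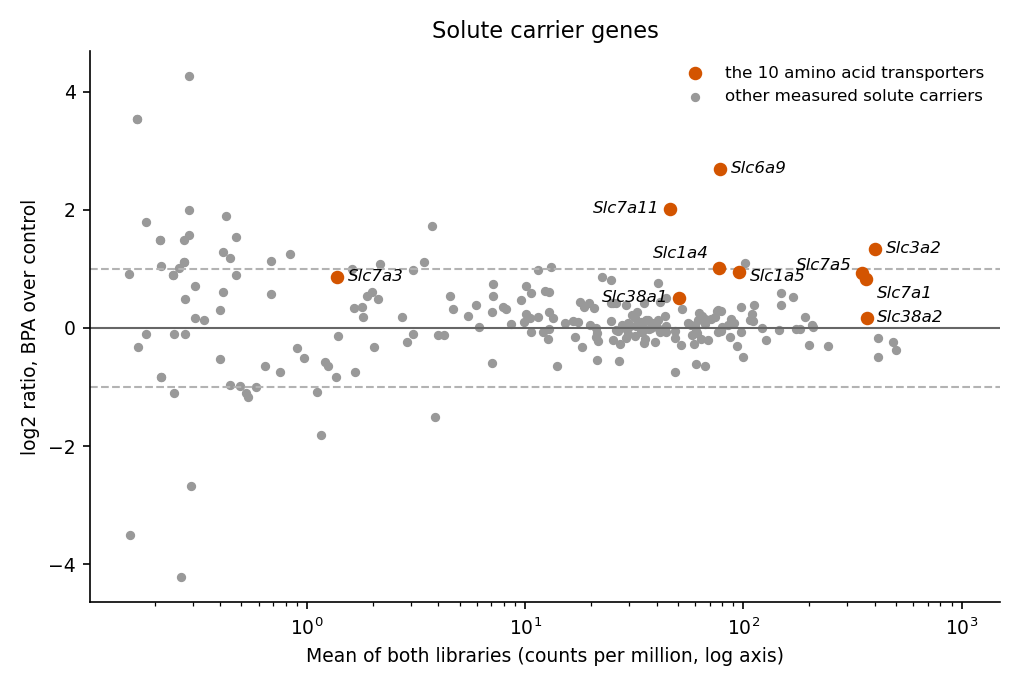
Each point is 1 of 236 measured genes whose symbol starts with Slc, placed by the mean of both libraries in CPM on a log axis and the log2 ratio of BPA over control. Among the abundant genes on the right, Slc6a9 and Slc7a11 stand above the rest at 2.70 and 2.02, and the widest scatter is on the left, where reads are few.

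Other plasma membrane amino acid transporters lay on both sides of equality, 7 above and 10 below. Of 37 such genes 17 were measured, 6 were under the read minimum and 14 were not analysed here. Of the 17 measured, 3 were past 2-fold upwards, 3 downwards and 11 neither. With a pseudocount of 5 these numbers were 2 and 1, since Slc7a4 was at 0.78, Slc38a4 at -0.94 and Slc7a8 at -0.97. With at least 50 reads, 1 of 10 was past 2-fold upwards (Slc7a2) and 2 downwards (Slc1a6 and Slc7a8). Over all measured genes 51.9% had a ratio above 1. Past 2-fold were 6.88% upwards and 4.61% downwards, and with at least 50 reads 3.25% and 2.05%. The median log2 ratio of the 17 was -0.10. Higher were Slc7a2, as given above, Slc7a4, at 1.12 with an interval from -0.31 to 3.11 and with 13.3% of its exon length shared with P2rx6 on the opposite strand, and Slc6a15, a carrier of branched-chain amino acids and proline. Slc6a15 had 19 reads with BPA and 0 in control, and the lower bound of its log2 interval was 2.11. Lower were Slc1a6, as given above, Slc38a4 at -1.16 (-2.41 to -0.15) with 11 reads with BPA and 24 in control, and the light chain Slc7a8 (LAT2) at -1.08 (-1.88 to -0.38) with 24 and 48 reads. The glutamate transporters of the SLC1 family, Slc1a1, Slc1a2, Slc1a3, Slc1a6 and Slc1a7, summed to 104 reads with BPA and 215 in control, against 7720 and 3628 reads of the neutral exchangers Slc1a4 and Slc1a5. Most of the glutamate transporter reads were from Slc1a6, with 69 and 183. Slc1a3 had 17 and 25 reads, Slc1a2 11 and 7, Slc1a7 4 and 0, and Slc1a1 3 and 0. The taurine transporter Slc6a6, the most abundant gene of the list, was at -0.37 (-0.40 to -0.34) with 14838 reads with BPA and 17759 in control. Slc7a6 was at -0.13, the aromatic amino acid transporter Slc16a10 at 0.06 and Slc38a6 at 0.54.

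Some lysosomal transporters return amino acids from protein breakdown to the cytosol, but not every gene of the list below does so. Of 9 measured lysosomal and vesicular transporters 8 had a ratio above 1, none reached 2-fold, and the median log2 ratio was 0.28. Over all measured genes 51.9% had a ratio above 1, 6.88% were past 2-fold upwards and 4.61% downwards. The lysosomal glutamine transporter Slc38a7 was at 0.81 (0.66 to 0.96) with 1057 reads with BPA and 559 in control. The lysosomal exporter of cationic amino acids Pqlc2 was at 0.65 and the lysosomal cystine exporter Ctns at 0.53. The arginine-sensing Slc38a9 was at 0.17, Mfsd12, which shares 29.7% of its exon length with an opposite-strand gene, at 0.25 and Slc36a4 at 0.12. Of 12 mitochondrial carriers 2 were past 2-fold upwards and 0 downwards, beside the 6.88% of all measured genes upwards and the 4.61% downwards. Their median was 0.12. These 2 were Slc25a2 at 1.58, from 15 reads with BPA and 4 in control, and Slc25a18 at 1.12, whose interval included equality, from 13 and 5 reads. With a pseudocount of 5 Slc25a18 was at 0.78, under 2-fold, and with at least 50 reads 0 of 10 carriers were past 2-fold. Of all genes with that many reads 3.25% were past 2-fold upwards and 2.05% downwards. The basic amino acid carrier Slc25a29 was at 0.98 and reached 2-fold with either other scaling, and the glycine carrier Slc25a38 was at 0.45. Sfxn2 was at 0.27, Slc25a13, a carrier of aspartate and glutamate, at -0.06, which turned to 0.01 with library-total scaling, the serine carrier Sfxn1 at -0.09 and Sfxn3 at -0.15.

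Among 17 measured genes of amino acid sensing, 3 were past 2-fold upwards and 0 downwards. The median log2 ratio was 0.04. All 17 had at least 50 reads, and of all genes with that many 3.25% were past 2-fold upwards and 2.05% downwards. Sesn3 was at 2.13 (1.94 to 2.35) with 1137 reads with BPA and 239 in control, and Sesn2, a leucine sensor that restrains the growth kinase complex mTORC1, at 1.67 (1.56 to 1.79) with 2850 and 826 reads. Ddit4, another inhibitor of mTORC1, was at 1.25. The kinase Eif2ak4 (GCN2), which senses uncharged tRNA and acts upstream of ATF4, was at -0.45 (-0.56 to -0.35), Bmt2 at -0.15 and Gcn1l1, the partner of GCN2, at -0.10.

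Transcription factors that act on transporter genes had 3 of 12 measured genes past 2-fold upwards and 0 downwards. Their median was 0.59. All 12 had at least 50 reads, and of all genes with that many 3.25% were past 2-fold upwards and 2.05% downwards. Atf3 was at 1.81, Ddit3 (CHOP) at 1.54 and Cebpb at 1.18. Opposite-strand exons of Tmem189, with 3439 reads with BPA and 2951 in control, overlap 20.7% of the exon length of Cebpb, which had 1184 and 483 reads. Atf4 itself was at 0.69 and Nfe2l2, which encodes NRF2, at 0.77, both named here after their values were seen. Trp53, known in human cells to repress Slc7a11, was at -0.42, with 129170 reads with BPA and 159652 in control. GC-2 is a line with temperature-sensitive p53, the protein of Trp53. Whether these reads come from a mutant or a wild-type Trp53 was not tested. Bach1, a repressor at antioxidant response elements, was at -0.21, and Hif1a at -0.05, which turned to 0.03 with library-total scaling. Of 5 factors that act on transporter proteins none reached 2-fold, and their median was -0.29. Cd44, known in human cells to stabilise the SLC7A11 protein, was at -0.77, the ubiquitin ligases Nedd4l and Nedd4 at -0.39 and -0.29, and Rnf5, a ubiquitin ligase for SLC1A5 and SLC38A2 in human cells, at 0.51, with 24.7% of its exon length shared with an opposite-strand gene. The deubiquitinase Otub1 was at -0.06, which turned to 0.02 with library-total scaling. The lists and transporters were selected with earlier results of these libraries known, so these counts are no independent evidence of a direction.

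**Figure D5:**
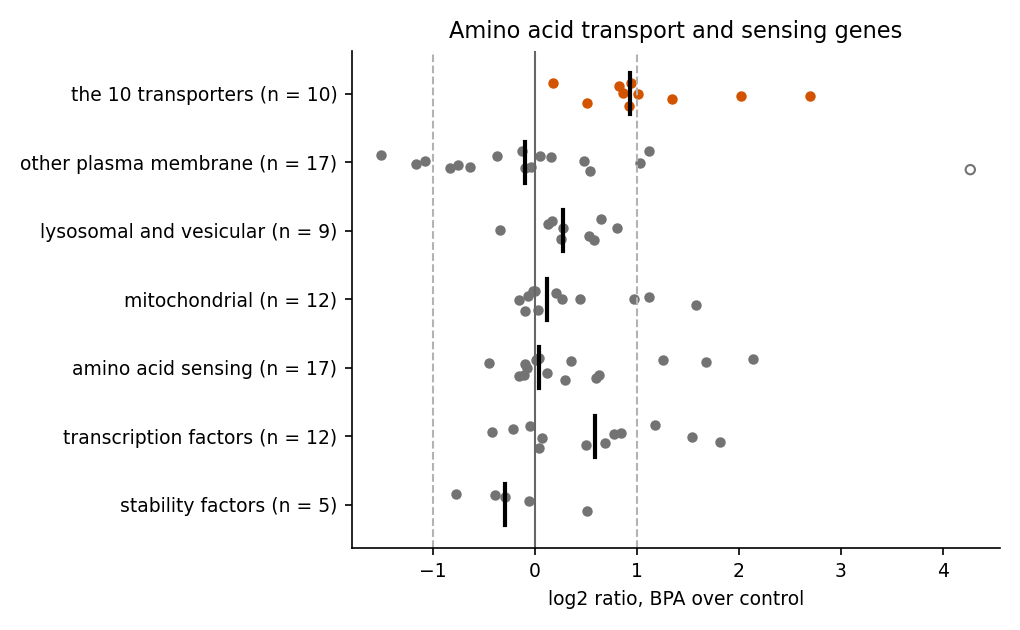
Each point is a measured gene of the list named on the left, placed by its log2 ratio of BPA over control, with a black line at the list's median and dashed lines at 2-fold. An open circle marks Slc6a15, with 0 reads in control. The 10 transporters all lie right of 0 with a median of 0.93, and the other plasma membrane transporters lie on both sides of it with a median of -0.10.

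The circRNA libraries, made after digestion of linear RNA with RNase R, gave a separate readout of the same genes. They held 17586 back-splice events with BPA and 12909 in control over 9158 circRNAs, taking a step of 2 in the deposited values as 1 event. Of these circRNAs 13 came from 6 of the 10 transporter genes, with 15 events with BPA and 5 in control, and 11 of the 13 rested on a single event. Slc7a11 had 3 circRNAs with 8 events with BPA (exact Poisson 95% interval 3.45 to 15.8) and 0 in control. The share of all events was 0.0455% with BPA, and 3 of 12909 events, the most that a count of 0 is taken to allow, would be 0.0232% in control. For the 3 circRNAs pooled, the exact 95% interval of the log2 ratio of shares began at 0.33. It also covers the counting error of the BPA library.

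All 3 Slc7a11 circRNAs ended at the same splice donor, that of exon 6, and began at exon 2, 3 or 4. The most frequent, with 6 events with BPA and 0 in control, joined exon 6 to exon 2 (chromosome 3, 50417988 to 50438915) and would hold 514 bases of exon. The others, joined to exon 3 (to 50435464) and exon 4 (to 50427776), had 1 event each with BPA and 0 in control. The junctions are shown because only the joined order of exons tells these circles from the linear transcript. Each line has the last 25 bases of exon 6 in lower case (chr3:50417988-50418012, GRCm38, minus strand) and the first 25 bases of the exon that follows it in capitals.
Exon 6 to exon 2: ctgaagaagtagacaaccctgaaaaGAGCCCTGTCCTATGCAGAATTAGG
Exon 6 to exon 3: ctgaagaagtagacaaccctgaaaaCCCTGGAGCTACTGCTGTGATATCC
Exon 6 to exon 4: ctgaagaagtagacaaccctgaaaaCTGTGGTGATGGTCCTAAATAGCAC

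Slc7a1 had 3 circRNAs of 1 event each with BPA and none in control, which drew on only 2 donors and 2 acceptors, at the ends of exons 4 and 8 and the starts of exons 2 and 4. Slc7a5 had 2 events with BPA and 2 in control over 4 circRNAs, 3 of which ended at exon 8. Slc38a1 had 1 event with BPA and 2 in control in 1 circRNA, the only 1 of the 13 with a circBase entry in the deposited table. Slc38a2 had 1 event with BPA from an intron, and Slc6a9, the transporter with the highest mRNA ratio, had 0 events with BPA and 1 in control. At these counts no difference beyond counting error was detectable for the other hosts, and none of the 13 circRNAs reached 10 events. The interval of Slc7a11, the host with the most events with BPA, held only for its 3 circRNAs pooled. For the most frequent of them alone, the Poisson intervals of 2.20 to 13.1 events with BPA and 0 to 3.69 in control overlapped.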

How the data were processed

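The deposited mRNA and circRNA values were log2 values. Per the submitters' processing notes, STAR (mRNA and circRNA) and StringTie (mRNA) were named with no version, with builds GRCm38 and mm10. No source used here names the read counter, its strand setting, the circRNA caller or the annotation release. The log2 values, taken to linear scale less 1, were whole multiples of 1 step per library (0.962 with BPA, 1.039 in control; tolerance 0.001) in 100% of 22127 genes, which recovered whole reads. Deposited p-values are quoted only as the authors' values.

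Ratios used the authors' scaling and a pseudocount of 1, with at least 10 reads in both libraries together. Exact intervals were computed with SciPy 1.17.1 in Python 3.11.15 and tested on simulated data. RPKM used library totals and the union of GENCODE M21 exons, which may not be what the authors counted. With 1 library per group no test was possible. The small RNA table and protein sequences were not used here. Alternatives were other pseudocounts, scalings, read minimums and fold thresholds. Members, lists and naming rule (all members; in each list every gene at 2-fold and the 3 highest and 3 lowest with at least 100 reads; 5 highest and lowest solute carriers) were chosen with earlier results of these data known.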

Additional observations from a re-analysis of the deposited data

How the results depend on the processing

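The median log2 ratio of the 10 transporters was 0.93 as reported, with a pseudocount of 5, with no filter and with at least 50 reads, 0.94 with a pseudocount of 0.5, 0.99 with upper-quartile scaling and 1.01 with library-total scaling. The number at least 2-fold higher was 4 under the pseudocounts and filters, 5 with upper-quartile scaling, which added Slc1a5, 6 with library-total scaling, which added Slc1a5 and Slc7a5, and 8 at a threshold of 1.5. Over all genes, 1160 were at least 2-fold higher and 778 lower. These counts were 2978 and 2381 with no filter, 440 and 277 with at least 50 reads, and 2252 and 1717 at a threshold of 1.5, each of which changes by construction how many genes can be counted. Library-total scaling shifted the median of all genes by 0.08. No paired analysis was possible because each group had 1 library, and no replicate could be left out for the same reason. Low reads decided calls in other lists: with a pseudocount of 5, Slc7a4, Slc38a4, Slc7a8 and Slc25a18 were no longer past 2-fold. Depth limits Slc7a3 and every circRNA named.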
